A study of Liolophura hirtosa with 16 samples.

Results

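The section of the chiton radula that carries calcium-deposited teeth was compared with foot muscle in Acanthopleura hirtosa, which the labels list as Liolophura hirtosa. The comparison rested on the 4 columns of the authors' value table titled as calcium radula and the 4 titled as foot muscle, 8 of the 16 arrays of the series. All animals were wild adults with no treatment. Each array held RNA pooled in equal parts from 3 animals, out of 12 animals in all, and each tissue was represented by 4 pools. The other 8 arrays came from the immature section and the iron-deposited section of the same radulae, 4 from each. They entered the fit and were used to show where the calcium section differed from them. A dissected section holds every cell type at that stage, so fewer cells of a type and less RNA per cell cannot be told apart.

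The radula is a ribbon of tooth rows that forms at its inner end and moves forward as the front rows wear away. Chiton teeth begin as an unmineralized organic scaffold of chitin and protein, their cutting surface then receives iron oxides, including magnetite, and the core of the tooth is filled later with calcium mineral. The tissue of the radula sac around the teeth supplies the mineral and was the source of the RNA. Foot muscle of the same animals is contractile tissue that forms no teeth.

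Each array carried 2240 probes of 35 to 40 bases on 493 chiton sequences, 109 of them contigs and 384 single clones. Gene names do not accompany the probes, so no gene function is given, and neither tissue could be checked against marker genes. Positions are bases within a contig or clone, not places in a genome. The probes named below are the oligonucleotides with the largest differences under a stated rule, and their sequences, 5′ to 3′ as deposited, are the identity of what was measured. The first group was higher in the calcium section than in foot muscle, by 15.4-fold to 56.2-fold.
Contig[0069], bases 649 to 683: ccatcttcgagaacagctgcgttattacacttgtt
Contig[0179], bases 337 to 371: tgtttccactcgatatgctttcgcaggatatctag
PlateD-E11-5-SMART, bases 246 to 282: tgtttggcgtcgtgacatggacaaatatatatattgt
Plate-B-A1-5-SMART, bases 21 to 55: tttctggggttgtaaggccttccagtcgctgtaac
The second group was lower in the calcium section than in foot muscle, by 2.11-fold to 5.38-fold.
Contig[0113], bases 49 to 83: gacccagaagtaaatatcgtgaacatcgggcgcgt
Contig[0222], bases 238 to 272: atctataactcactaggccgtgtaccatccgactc
Contig[0002], bases 258 to 292: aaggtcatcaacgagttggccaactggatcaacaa
PlateC-D5-5-SMART, bases 486 to 520: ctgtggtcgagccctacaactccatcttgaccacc
Plate-A-B9-5-SMART, bases 373 to 407: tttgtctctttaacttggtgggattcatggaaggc
Plate-C-B11-5-SMART, bases 577 to 611: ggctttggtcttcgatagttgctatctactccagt

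The identity of 2 of the 4 calcium arrays was in dispute between the deposited sources. The value table's columns for calcium replicates 2 and 4 were constant multiples of the scanner tables recorded for immature replicates 2 and 4, and the reverse. The other 12 columns matched their own scanner tables. The value table was followed here, with earlier results of these data known. Across probes, which are not independent replicates, calcium columns 2 and 4 of the value table correlated with calcium columns 1 and 3 at a Pearson r of 0.957 to 0.988 and with immature columns 1 and 3 at 0.745 to 0.769. The named probes and the main counts below are also given for the undisputed arrays, which leave 2 calcium arrays, 2 immature arrays, 4 iron arrays and 4 foot muscle arrays. These arrays are part of the full set, so values from them are not independent of the values from all arrays. Within the calcium section r was 0.950 to 0.988, and within foot muscle 0.964 to 0.986. Calcium replicate 3 correlated with the other calcium arrays at 0.950 to 0.974. The 4 calcium arrays correlated with foot muscle at a median r of 0.834, with the iron section at 0.859 and with the immature section at 0.761.

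Levels are given relative to the mean of an array, which is set to 1, after quantile scaling between arrays. On this scale the levels of an array ran from about 0.180 to 82.7 with a median of 0.351. The files hold no background measurement, so a level near the bottom of this range has no known zero, and fold changes against such a level depend on the background correction chosen. The number of arrays limits the precision of every value.

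The largest rise was on Contig[0069]. At bases 649 to 683 its levels were 9.77, 9.77, 19.5 and 15.9 on the calcium arrays and 0.237, 0.241, 0.220 and 0.235 on the foot muscle arrays. The groups lay far apart, and the foot muscle levels were close to the lowest that an array gave. The geometric means were 13.1 and 0.233 (log2 SD 0.50 and 0.060, n = 4 each). The calcium section was thus 56.2-fold higher (log2 5.81 with SE 0.19, limma adjusted p = 1.35e-12). The undisputed arrays also gave 56.2-fold (limma adjusted p = 1.06e-08). The size of the difference from this low level depended on the processing, with a log2 difference of 7.05 from scanner tables matched to the value table and background-corrected with normexp, and 5.13 under cyclic loess. The probe was also 2.09-fold higher in the calcium than in the iron section (limma adjusted p = 0.000571) and 12.1-fold higher than in the immature section (limma adjusted p = 2.72e-10). Its geometric mean was 1.08 in the immature, 6.29 in the iron and 13.1 in the calcium section.

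Contig[0179] had the second largest rise. At bases 337 to 371 its levels were 16.5, 19.5, 12.6 and 21.0 on the calcium arrays and 0.438, 0.391, 0.464 and 0.540 on the foot muscle arrays. Every calcium array stood at least an order of magnitude above every foot muscle array. The difference was 37.5-fold (log2 5.23, SE 0.16, limma adjusted p = 7.89e-13), and 31.2-fold among the undisputed arrays. Its geometric means in the immature and iron sections were close to each other, at 5.71 and 5.42, and the calcium section was 2.99-fold and 3.15-fold above them (limma adjusted p = 8.55e-07 and 8.47e-07).

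**Figure D1:**
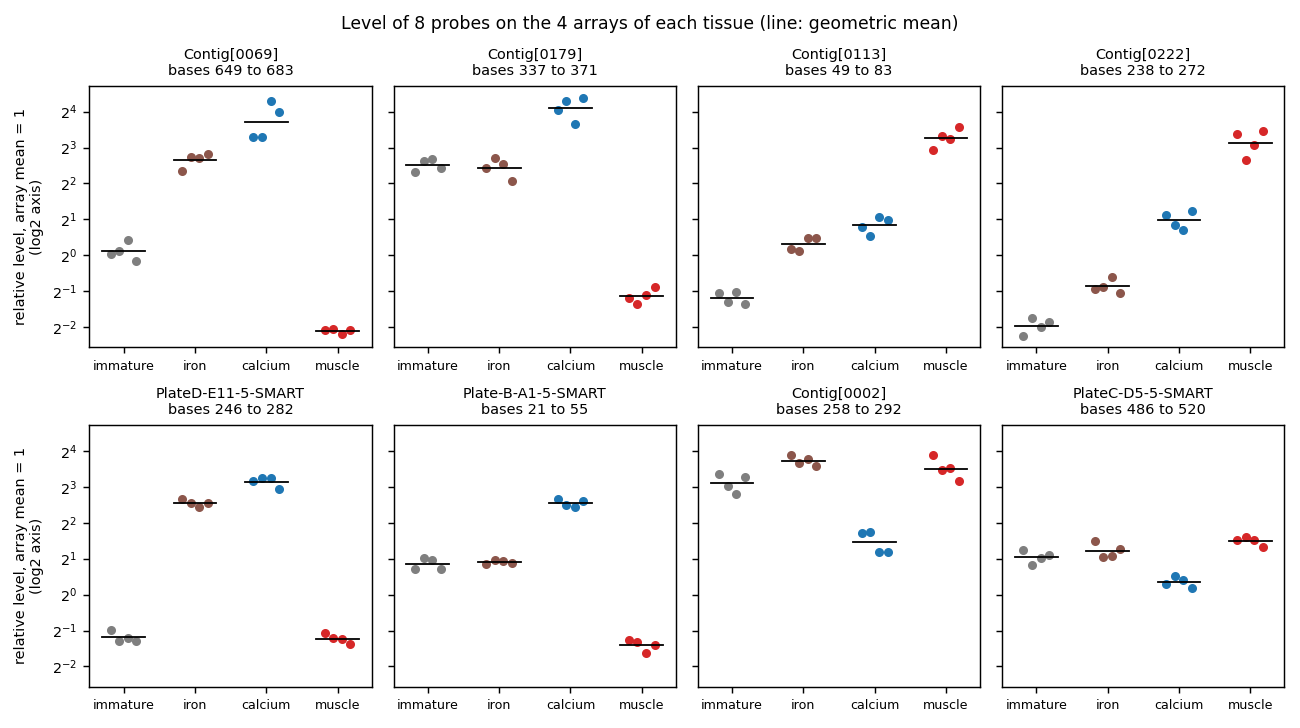
Relative level (array mean = 1, log2 axis) of 8 named probes on the 4 arrays of each tissue. Points are arrays and lines are geometric means. Contig[0069], Contig[0179], PlateD-E11-5-SMART and Plate-B-A1-5-SMART are highest in the calcium section, Contig[0113] and Contig[0222] are highest in foot muscle with calcium arrays next, and Contig[0002] and PlateC-D5-5-SMART are lowest in calcium arrays.

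PlateD-E11-5-SMART and Plate-B-A1-5-SMART were the next sequences by size among those that were higher in the calcium section than in all 3 other tissues. PlateD-E11-5-SMART at bases 246 to 282 had levels of 8.95, 9.48, 9.48 and 7.68 on calcium arrays against 0.474, 0.430, 0.421 and 0.387 on foot muscle arrays. The replicates were tight in both groups, and the difference was 20.8-fold (log2 4.38, SE 0.092, limma adjusted p = 5.88e-15) with all arrays and 20.9-fold with the undisputed ones. Its geometric mean was 5.84 in the iron section, 1.52-fold below calcium (limma adjusted p = 0.000102), and 0.437 in the immature section, next to the 0.427 of foot muscle.

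Plate-B-A1-5-SMART is a short clone of 274 bases with 2 probes. At bases 21 to 55 its levels were 6.32, 5.67, 5.38 and 6.04 on calcium arrays and 0.416, 0.403, 0.322 and 0.381 on foot muscle arrays. The calcium section was 15.4-fold above foot muscle (log2 3.95, SE 0.091, limma adjusted p = 1.28e-14), 3.12-fold above the iron section and 3.22-fold above the immature section (limma adjusted p = 9.67e-10 and 2.81e-10). The value among the undisputed arrays was 14.9-fold. With matched and background-corrected scanner tables the log2 difference from foot muscle was 4.58. The clone's other probe, at bases 65 to 99, gave only 1.34-fold (limma adjusted p = 0.0264) and was not called among the undisputed arrays (limma adjusted p = 0.0539).

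Falls were smaller than rises. Contig[0113] had the largest, at bases 49 to 83, with levels of 1.72, 1.46, 2.09 and 1.96 on calcium arrays and 7.68, 9.91, 9.48 and 11.9 on foot muscle arrays. The groups did not overlap, and the calcium levels were well above the bottom of the range. The difference was 5.38-fold (log2 -2.43, SE 0.14, limma adjusted p = 1.36e-09), and 5.02-fold among the undisputed arrays. The calcium section was nonetheless 1.44-fold above the iron section (limma adjusted p = 0.0116) and 4.08-fold above the immature section (limma adjusted p = 6.60e-09), which had geometric means of 1.25 and 0.440.

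Contig[0222] showed the same order of tissues. At bases 238 to 272 its levels were 2.16, 1.80, 1.63 and 2.36 on calcium arrays and 10.3, 6.32, 8.36 and 11.1 on foot muscle arrays. Calcium arrays were 4.48-fold below foot muscle (log2 -2.16, SE 0.17, limma adjusted p = 5.20e-08), or 4.62-fold among the undisputed arrays. They were 3.59-fold above iron and 7.63-fold above immature arrays (limma adjusted p = 3.79e-07 and 5.88e-10).

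Contig[0002] and PlateC-D5-5-SMART were lower in the calcium section than in foot muscle and in both other sections. Contig[0002] at bases 258 to 292 had levels of 3.27, 3.32, 2.28 and 2.28 on calcium arrays and 14.7, 11.1, 11.5 and 8.95 on foot muscle arrays. The calcium section was 4.14-fold below foot muscle (log2 -2.05, SE 0.17, limma adjusted p = 8.98e-08), 4.82-fold below iron and 3.17-fold below immature arrays (limma adjusted p = 2.95e-08 and 6.57e-07). The undisputed arrays gave 4.15-fold against foot muscle. Between the iron section and foot muscle the log2 difference of this probe was 0.22 (limma adjusted p = 0.346).

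PlateC-D5-5-SMART at bases 486 to 520 had levels of 1.23, 1.42, 1.32 and 1.13 on calcium arrays and 2.89, 3.03, 2.86 and 2.52 on foot muscle arrays. The fall was 2.22-fold (log2 -1.15, SE 0.11, limma adjusted p = 6.62e-07), and 2.21-fold among the undisputed arrays. With each array's median set equal in place of quantile scaling, the log2 difference was -0.71 and the call ended (limma adjusted p = 0.0699).

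The largest falls that were not called against either other section were on Plate-A-B9-5-SMART and Plate-C-B11-5-SMART. Plate-A-B9-5-SMART at bases 373 to 407 had levels of 0.723, 0.600, 0.314 and 0.378 on calcium arrays and 1.50, 1.41, 1.28 and 1.38 on foot muscle arrays. The calcium arrays were the more scattered group (log2 SD 0.56 against 0.096), yet all lay below every foot muscle array, by 2.92-fold (log2 -1.55 with SE 0.22, limma adjusted p = 5.10e-05). Among the undisputed arrays the fall was 2.88-fold. Its difference from the iron section was 0.09 on the log2 scale (limma adjusted p = 0.941) and from the immature section -0.29 (limma adjusted p = 0.451). Plate-C-B11-5-SMART at bases 577 to 611 was 2.11-fold below foot muscle (limma adjusted p = 0.000148), with levels of 1.34 to 1.95 on calcium arrays and 3.06 to 4.35 on foot muscle arrays, and 2.16-fold below among the undisputed arrays. Its log2 difference was -0.24 from the iron section (limma adjusted p = 0.464) and 0.42 from the immature section (limma adjusted p = 0.0845). Against the immature section, Plate-A-B9-5-SMART at bases 297 to 331 was called lower and Plate-C-B11-5-SMART at bases 481 to 515 higher. The remaining probes of both clones were called against neither section.

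Slides were divided into 4 sectors, and a calcium array and a foot muscle array lay in each sector position. Arrays paired by sector had different replicate numbers. Their deviations from the tissue means did not go together across probes (r of -0.036, -0.190, -0.149 and -0.414), so these pairs are not matched samples. For the probe of Contig[0069] the log2 difference within a sector was 5.38 to 6.33, and for that of Contig[0179] 4.93 to 5.58. It was -2.80 to -1.97 for Contig[0113] and -2.35 to -1.96 for Contig[0222]. For the 10 probes whose sequences are printed above, the naming rule required groups apart. The same direction in all 4 sectors was therefore fixed by that rule, and only the sizes within a sector add information.

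Probes along the same sequence share their target, and some overlap in bases. On the sequences named so far they lay on the same side of 0 and varied in size. All 4 probes of Contig[0069] were called higher, with log2 differences from 0.41 to 5.81. The probe at bases 434 to 469 gave only 1.33-fold (limma adjusted p = 0.00485), against 14.5-fold at bases 353 to 387. All 5 probes of Contig[0179] were called higher, by 2.82-fold to 37.5-fold, and all 5 of PlateD-E11-5-SMART, by 1.71-fold to 20.8-fold. Probes of the contigs that fell were closer together. The 5 probes of Contig[0113] gave log2 differences of -2.43 to -1.49, the 5 of Contig[0222] -2.16 to -1.38, and the 5 of Contig[0002] -2.05 to -1.18 and all of these probes were called. The probe of Contig[0002] at bases 962 to 996 was not called among the undisputed arrays (limma adjusted p = 0.0675). Nor were those of PlateC-D5-5-SMART at bases 609 to 643 and 780 to 814 (limma adjusted p = 0.0692 and 0.0810). The same held for Plate-C-B11-5-SMART at bases 601 to 635 (limma adjusted p = 0.220). On Plate-A-B9-5-SMART the log2 differences ran from -1.55 to -0.06, and the probe at bases 555 to 590 was not called with all arrays (limma adjusted p = 0.545). When the log2 values of a sequence's probes were averaged per array, Contig[0179] was 12.6-fold higher in the calcium section (log2 3.65, SE 0.096), Contig[0069] 10.7-fold (log2 3.42, SE 0.11) and PlateD-E11-5-SMART 8.22-fold, and Contig[0113] was 4.26-fold lower (log2 -2.09, SE 0.13).

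**Figure D2:**
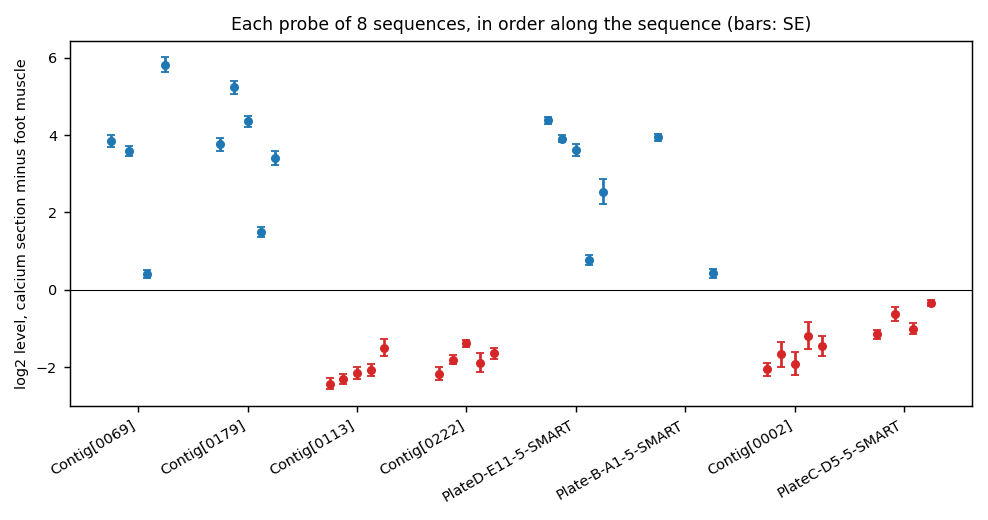
Log2 level in the calcium section minus foot muscle for every probe of 8 sequences, in order along each sequence, with SE. All probes of a sequence lie on the same side of 0, while their size varies from 0.41 to 5.81 within Contig[0069] and from -2.43 to -1.49 within Contig[0113].

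Over the whole array, limma called 529 of 2240 probes at an adjusted p under 0.05 (23.6%), 220 higher in the calcium section (9.82%) and 309 lower (13.8%). The undisputed arrays gave 431 calls, 194 higher (8.66%) and 237 lower (10.6%). Of the 220, 189 were called the same way there, and of the 309, 215, with 0 called the opposite way. Those arrays are part of the full set, so an opposite call was unlikely from the start. With the replicate number as a block, 803 probes were called, 277 higher and 526 lower, which included all 529. The 4 arrays of each tissue did not overlap at 203 of the 220 and 232 of the 309 probes, against 214 (9.55%) and 267 (11.9%) of all probes with groups apart in each direction.

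The balance between higher and lower calls depended on how arrays were scaled to each other. Without scaling beyond the authors' division by the array mean there were 138 higher and 55 lower. Setting the array medians equal gave 163 and 51, the 75th percentiles 147 and 91, and cyclic loess 208 and 120. Relative to foot muscle, the median log2 difference of all probes was -0.05 under quantile scaling and -0.23 as deposited. Of the 309 lower calls, 268 were smaller than 2-fold, against 90 such calls under cyclic loess.

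Calls beyond 2-fold moved less. They numbered 144, with 103 higher (4.6%) and 41 lower (1.83%), and 151 among the undisputed arrays, with 104 higher and 47 lower. Under the other 4 scalings 104 to 114 were higher and 21 to 31 lower, and 123 to 132 of the 144 probes were again called beyond 2-fold in the same direction. Beyond 4-fold were 54 higher probes on 20 sequences and 9 lower probes on 5 sequences. The other scalings gave 49 to 57 higher and 0 to 4 lower beyond 4-fold. Beyond 8-fold were 29 higher and 0 lower probes, and 8 of the 29 were beyond 16-fold. Among the 54, the geometric mean in foot muscle was between 0.230 and 1.48 with a median of 0.383, close to the median of an array. Among the 9, that in calcium arrays was between 0.639 and 3.71 with a median of 1.90. The lower side of these differences was thus dimmer for the rises than for the falls.

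**Figure D3:**
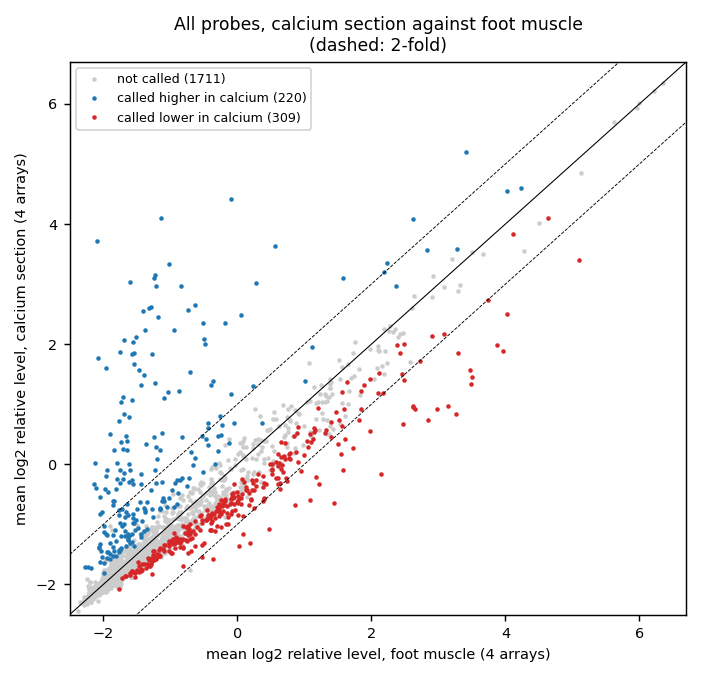
Mean log2 relative level of each of the 2240 probes in foot muscle (x axis) and in the calcium section (y axis), 4 arrays each. Of the 220 probes called higher in the calcium section 103 lie above the upper dashed 2-fold line, whereas 268 of the 309 called lower lie between the line of equality and the lower 2-fold line.

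**Figure D4:**
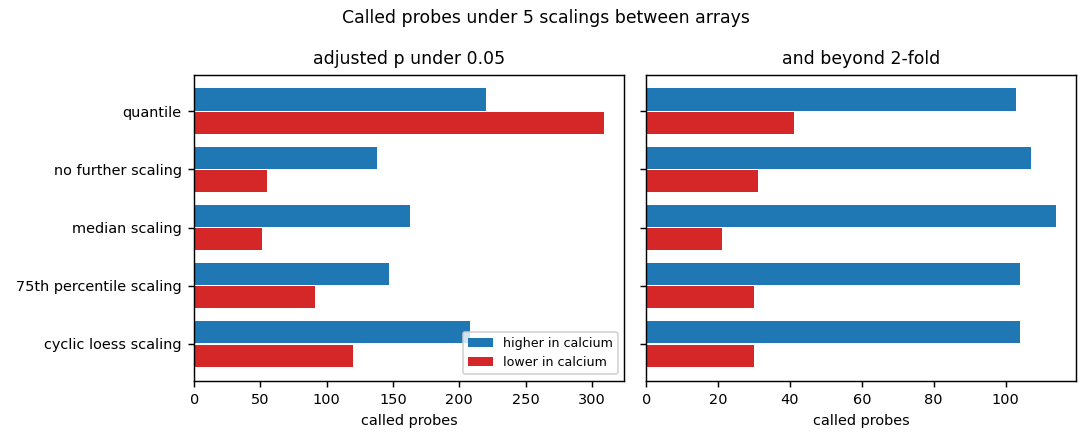
Probes called higher and lower in the calcium section under 5 scalings between arrays, for all calls (left) and for calls beyond 2-fold (right). Lower calls range from 51 to 309 on the left and from 21 to 41 on the right, while higher calls beyond 2-fold stay between 103 and 114.

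The error limits how large a difference could go uncalled. The median SE of a log2 difference was 0.10. Of the 1711 probes not called, 1660 had a 95% interval of the difference that lay within 2-fold in either direction, and 51 had an interval that reached beyond it. The median SD between the 4 arrays was 0.13 on the log2 scale in the calcium section and 0.14 in foot muscle.

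By sequence, limma called 213 of 493 (43.2%), 63 higher in the calcium section (12.8%) and 150 lower (30.4%). The counts were 62 and 123 among the undisputed arrays, and 79 and 226 with the replicate number as a block. Both counts moved with scaling. Higher and lower sequences numbered 61 and 40 under cyclic loess, 46 and 15 under median scaling, 39 and 22 under 75th percentile scaling, and 40 and 15 with the deposited scaling. Of the 471 sequences with 3 or more probes, 26 had every probe called higher and 12 had every probe called lower. The 26 included 17 contigs and were higher by 1.63-fold to 15.1-fold, with a median of 2.89-fold. The 12 included 7 contigs and were lower by 1.42-fold to 4.26-fold, with a median of 2.07-fold. All 26 and all 12 were also called at the sequence level among the undisputed arrays. Their choice made this likely, since every probe had been called with a set that includes those arrays. Within the 26, the probes of a sequence spread over a median of 1.39 on the log2 scale, and within the 12 over 0.54.

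Probes on a sequence disagreed in direction in 3 cases, Contig[0133], PlateF-E12-5-SMART and Contig[0022]. On Contig[0133] the probe at bases 617 to 651 was 1.39-fold higher in the calcium section (limma adjusted p = 0.00367), while the one at bases 97 to 131 was 1.31-fold lower (limma adjusted p = 0.00271). Among the undisputed arrays both were called (limma adjusted p = 0.0124 and 0.0136). Under the 4 other scalings neither was called, with limma adjusted p values of 0.127 to 0.543 for the higher and 0.0796 to 0.425 for the lower one. On PlateF-E12-5-SMART, a clone of 233 bases with 2 probes, bases 152 to 188 gave 1.50-fold higher (limma adjusted p = 0.0197, with overlapping groups) and bases 68 to 102 gave 1.23-fold lower (limma adjusted p = 0.00218). Among the undisputed arrays the higher probe of PlateF-E12-5-SMART was no longer called (limma adjusted p = 0.0592), nor was it without further scaling (limma adjusted p = 0.0887). The lower probe of PlateF-E12-5-SMART was not called under the 4 other scalings (limma adjusted p of 0.163 to 0.637). The sequence means of the 3 were not called, with limma adjusted p values of 0.317, 0.272 and 0.200. Contig[0022] was outside the naming rule and was added because the cases were few.

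The calcium section was set against the 2 other radula sections at the probes called against foot muscle. The comparisons share the 4 calcium arrays and are therefore not independent. Over all probes, 281 were called higher (12.5%) and 241 lower (10.8%) in calcium than in iron arrays, and 354 higher (15.8%) and 263 lower (11.7%) than in immature arrays. Of the 220 probes higher in calcium than in foot muscle, 82 on 28 sequences were called higher than both other sections too. Called against neither were 5, while 26 on 10 sequences were called lower than both. A further 50 were called above either the iron or the immature section and below the other. Another 30 were called higher than a single section and 27 lower than a single section. The share of all probes in each joint class is not given, so these counts and those of the lower probes below are not set against it. In the class of 82, the median log2 difference from foot muscle was 1.56 in the calcium, 0.54 in the iron and 0.08 in the immature section. In the class of 26, those medians were 0.87, 2.19 and 2.83.

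The 5 higher probes called against neither other section showed small differences. They lay on Contig[0224], Contig[0078], Contig[0059] and Plate-D-E3-5-SMART, the last 2 named because the count was small, with log2 differences from foot muscle of 0.33 to 0.53. On Contig[0224] at bases 145 to 179 the levels were 0.338, 0.374, 0.529 and 0.438 on calcium arrays and 0.276, 0.272, 0.312 and 0.288 on foot muscle arrays. The difference was 1.44-fold with a limma adjusted p of 0.0299, and the call ended among the undisputed arrays (limma adjusted p = 0.136) and without calcium replicate 3 (limma adjusted p = 0.104). The other probes of this contig reached 3.90-fold. On Contig[0078] at bases 149 to 183 it was 1.30-fold (limma adjusted p = 0.00888), and 1.42-fold among the undisputed arrays (limma adjusted p = 0.00871). The call on Contig[0078] ended under 3 of the 4 other scalings (limma adjusted p of 0.208 to 0.679) and held under cyclic loess (limma adjusted p = 0.0489). That on Contig[0224] at bases 145 to 179 ended under all 4 (limma adjusted p of 0.114 to 0.248).

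Of the 309 probes lower in the calcium section than in foot muscle, 175 on 132 sequences were called against neither other section, 26 on 10 sequences were lower than both, 47 on 22 sequences were higher than both, 10 were called in opposite directions, 31 were lower than a single section and 20 higher than a single section. With the replicate number as a block, 296 probes in all were called against neither section, 7 of them higher and 289 lower than foot muscle, against 180 without it. These counts also moved with scaling. Called against neither were 30 of 163 higher and 17 of 51 lower probes under median scaling, 8 of 138 and 14 of 55 with the deposited scaling, 11 of 147 and 39 of 91 under 75th percentile scaling, and 16 of 208 and 36 of 120 under cyclic loess. In the class of 175 the median log2 difference from foot muscle was -0.44 in the calcium, -0.47 in the iron and -0.43 in the immature section. In the class of 47, to which Contig[0113] and Contig[0222] belong, it was -0.74, -1.64 and -1.55. Of the 41 lower probes beyond 2-fold, 16 were in the class higher than both other sections, 7 in the class lower than both and 7 in the class called against neither. Of the 103 higher probes beyond 2-fold, 51 were higher than both other sections and 0 were called against neither. Whether the proportions of these classes differ between the higher and the lower probes was not tested.

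Among the undisputed arrays, 82 probes were called the same way against foot muscle and both other sections, 68 higher and 14 lower, against 108 (82 higher, 26 lower) with all arrays. Called against neither among the undisputed arrays were 25 higher and 160 lower. All arrays with the replicate number as a block gave 137 probes called the same way against both other sections, 107 higher and 30 lower. With the scanner tables assigned as recorded, 0 probes were called the same way against both other sections by limma, and 0 had an unadjusted p under 0.05 in all 3 comparisons in the same direction.

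**Figure D5:**
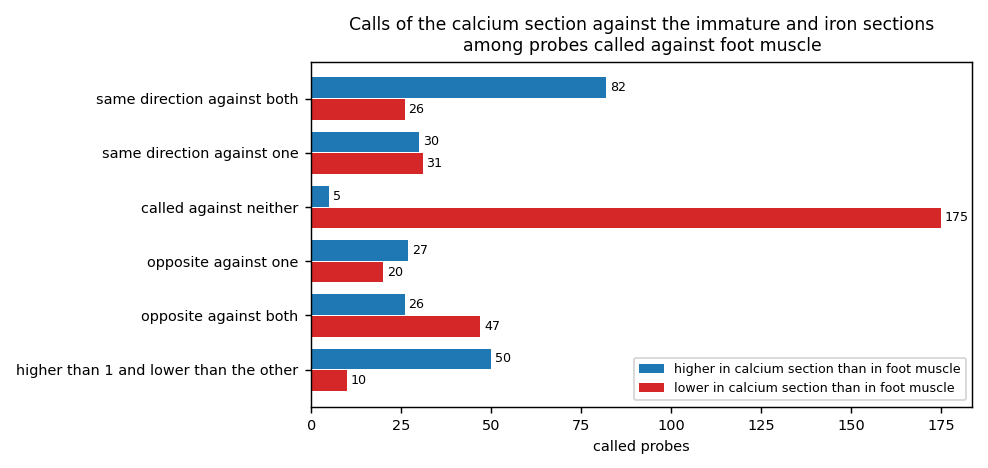
Number of probes called higher (blue, 220) and lower (red, 309) in the calcium section than in foot muscle, split by their calls in the calcium section against the immature and iron sections. Of the higher probes 82 were also higher than both sections, and of the lower probes 175 were called against neither. The share of all probes in each class is not given.

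Called probes differed in the kind of sequence they lay on. Of 495 contig probes, 123 were called higher (24.8%) and 83 lower (16.8%), and of 1745 clone probes 97 were higher (5.56%) and 226 lower (13.0%). Beyond 2-fold the shares were 13.3% higher and 4.65% lower on contigs and 2.12% and 1.03% on clones. Contig probes were also brighter, with a median level over all arrays of 0.580 against 0.334 on clones, and the part of brightness in these shares was not tested. Calls of both directions were rarer among dim probes. Of the 560 dimmest probes, with mean levels of 0.201 to 0.282, 2 were called higher and 3 lower. Of the 560 brightest, from 0.644 upward, 118 were called higher and 168 lower.

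Lower calls also varied with base composition. They rose from 5.89% of the 560 probes with the least G and C (30% to 37.8% of bases) to 23.0% of the 560 with the most (45.7% to 57.1%), whereas higher calls were 8.57% and 12.7% there. Under cyclic loess the shares of lower calls were 1.61% and 9.82%. The median level of these sets moved in the same direction, from 0.296 to 0.515, and its part in the shares was not tested. Within the 560 brightest probes, lower calls were 22.2% of 72 and 32.4% of 241. By position along the sequence, 8.07%, 11.2% and 10.1% of probes were called higher and 15.0%, 13.2% and 13.2% lower in the first, middle and last stretch of equal length.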

How the data were processed

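RNA was extracted with Trizol, labelled with Cy5 and hybridised to arrays read in 1 colour, per the labels' protocols. The authors' deposited value table holds a ratio, which the values show to be each probe's mean foreground over its array's mean, on a linear scale and with no background correction. Column medians were 0.247 to 0.457 on calcium and 0.356 to 0.450 on foot muscle columns. The deposited scanner tables hold mean foreground intensity per spot, per the file headers. Probes at the scanner maximum (2 on the 8 arrays, both on Contig[0011]) were kept.

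Values were log2-transformed and quantile-scaled over 16 columns, and a mean per tissue was fitted with limma 3.58.1 in R 4.3.3 (eBayes, two-sided, Benjamini-Hochberg over all probes or sequences, called at an adjusted p under 0.05). The fit was checked on simulated data with independent noise and no scaling step. That check therefore does not cover the scaling or deviations shared between arrays. Groups and replicate numbers came from the titles. The 4 arrays of each number lay in 4 different sector positions, as arrays on the same slide would. Each array was also a separate pool. Variation from pools and any variation from slides therefore enter the p-values together, and their parts were not tested. The main fit had no term for the replicate number. Same-numbered calcium and foot muscle arrays deviated together (r of 0.587, 0.120, 0.479 and 0.572 across probes), so values with the number as a block are given for the main counts they change. Named probes were called, had groups apart, and were ranked by size, 1 per sequence: the first 2 in each direction, then the first 2 also called the same way against both other sections, then the first 2 called against neither, and last the 2 sequences with the widest opposite calls, where groups could overlap. The comparison, its source of array identity and the lists were chosen with earlier results of these data known. The 22 alternative settings covered scaling, pseudocount, low values, array identity, blocks, weights and single arrays left out.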

Additional observations from a re-analysis of the deposited data

Results flagged for a closer look

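In 1 of 32 groups tested (16 named probes, calcium and foot muscle arrays), a single array stood far from the others. On Contig[0133] at bases 617 to 651, calcium replicate 2 had a level of 0.394, below the 0.464 to 0.471 of the other 3 calcium arrays. Chance gives about 1 such group in 20. This array is 1 of the 2 calcium arrays whose identity is in dispute.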

How the results depend on the processing

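Calls beyond 2-fold stayed within 1.5 times the reported 144 in all 22 settings, at 128 to 195. The 529 called probes became 193 without further scaling, 214 with median scaling, 238 with 75th percentile scaling, 328 with cyclic loess, 313 with the scanner tables as recorded and 803 with the replicate block. The 213 called sequences became 55, 61, 61 and 101 under those 4 scalings. Probes called against neither other section (180) became 22, 47, 50 and 52, and 296 with the replicate block. Those called the same way against both (108) became 63, 39 and 66 under the first 3 scalings and 0 with the scanner tables as recorded. The causes were not tested. The fit of 8 arrays alone gives no value for these classes. With 1 array left out, probes called were 444 to 547, beyond 2-fold 142 to 151, sequences 160 to 236, called against neither 130 to 210 and called the same way against both 95 to 110.

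The 16 named probes kept direction and call in 313 of 352 fits, lost the call in 38 and turned in 1. Contig[0133] at bases 97 to 131 turned to 0.37 with the scanner tables as recorded. That setting also ended the calls on PlateD-E11-5-SMART (log2 2.45, limma adjusted p = 0.25) and Contig[0002] (log2 -1.24, limma adjusted p = 0.119). Contig[0069], Contig[0179], Contig[0113], Contig[0222], Plate-B-A1-5-SMART, Plate-A-B9-5-SMART and Plate-C-B11-5-SMART kept theirs in all 22 settings, but not their size. The log2 difference was -1.94 to -1.28 for Plate-A-B9-5-SMART and -1.41 to -0.70 for Plate-C-B11-5-SMART over those settings. Over those settings the log2 difference was 5.11 to 7.05 for Contig[0069], 4.66 to 5.76 for Contig[0179], -3.83 to -1.87 for Contig[0113], -4.09 to -1.62 for Contig[0222] and 3.63 to 4.58 for Plate-B-A1-5-SMART. The scanner tables as recorded gave the -3.83 and -4.09, and 1.90 for Contig[0133] at bases 617 to 651. Contig[0224] at bases 145 to 179 lost its call without calcium replicate 3 or 4 or foot muscle replicate 1, 2 or 4 (limma adjusted p = 0.0597 to 0.104), and PlateF-E12-5-SMART at bases 152 to 188 without calcium replicate 1 or foot muscle replicate 2 or 4 (0.0586 to 0.0722). The replicate block changed no call of a named probe. No background was measured, so differences from dim values depend on the correction chosen.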
